A study of Homo sapiens with 16 samples.

Results

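The 39 genes described here encode the superoxide, peroxide, glutathione and thioredoxin systems of the cell, together with targets and regulators of the transcription factor NRF2. They were picked out by gene symbol from a given list of names, and the rule itself uses no measured value. All 39 were found among the 33121 entries of the count table. All 39 passed the filter on low counts and were tested, with between 17 counts (GSTM3) and 11663 counts (TKT) in a library. RNA was sequenced after poly-A selection in HAP1, a near-haploid human cell line derived from a chronic myeloid leukaemia line. The study is about the granules of RNA in mitochondria and the toxicity of metals in parkinsonism.

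There were 4 groups with 4 libraries each. One group carried a deletion of SLC30A10, which encodes a manganese exporter of the cell surface, and is called the SLC30A10 knockout. Its control set was labelled wild type for SLC30A10. The other knockout carried a deletion of another gene and is called the second knockout, and its control set, labelled wild type for that gene, is called the second control set. Each knockout with its control set is called an experiment, the first for SLC30A10 and the second for the other gene. That word names the groups compared and is not a batch taken from the labels. All 4 groups were grown in the same medium with serum, antibiotics and 10% CO2, no treatment is given in the labels, and both control sets carry the identifier of the same parental line. Each deletion carries a single cell line identifier, and how many clones stand behind it is not stated, so that an effect of the deletion and a property of the line cannot be told apart. The labels do not say whether the 4 libraries of a group came from separate cultures, so p-values measure the spread between these libraries, which may be technical. In bulk RNA, fewer cells of a type and less RNA per cell cannot be told apart.

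Library totals lay between 16058856 and 16648151 counts and the spread between libraries was small, with a common biological coefficient of variation of 0.0497. The RNA of SLC30A10 was close to absent everywhere, at 6 to 9 counts per control library and 3 to 11 per knockout library. The deletion therefore could not be seen in these counts, and the knockout is named as the labels name it. Both genes of the BCR-ABL1 fusion that the parental leukaemia line carries were expressed, BCR at 19.8 to 24.3 and ABL1 at 12.6 to 20.6 counts per 1000000 of scaled library size (CPM). Of 7 haematopoietic markers (PTPRC, CD33, CD34, GATA1, SPI1, HBG1 and ITGAM) none exceeded 9 counts in a library, while VIM, a mesenchymal intermediate filament, lay between 352.7 and 660 CPM. The mesenchymal CDH2 and FN1 lay at 87.9 to 161 and 40.9 to 118.5 CPM. Epithelial markers were mixed: KRT18 lay at 33.5 to 53.6 CPM and KRT8 at 2.48 to 10.5 CPM, while EPCAM and CDH1 reached at most 1.58 and 0.303 CPM. Replicate 3 of the SLC30A10 control set stood apart for the members. Their summed level was 6300 CPM there, against 5906 to 5931 CPM in the other libraries of that set, and calls that changed without it are given beside the results they touch.

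NRF2, encoded by NFE2L2, is held in the cytoplasm by KEAP1, which hands it to a ubiquitin ligase for degradation. Oxidants and electrophiles modify cysteines of KEAP1, NRF2 escapes and, paired with a small MAF protein, binds antioxidant response elements in the promoters of genes for glutathione synthesis, thioredoxin reduction, quinone reduction and NADPH supply. The enzymes it serves work in relays: superoxide dismutases make hydrogen peroxide, catalase, glutathione peroxidases and peroxiredoxins remove it, and glutathione and thioredoxin, reduced at the expense of NADPH, restore the peroxidases. Because NRF2 is regulated mostly through the stability of its protein, RNA levels of its targets are commonly used as a readout.

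The core of the antioxidant response element, TGACNNNGC, was searched on both strands in the 250 bases before each transcription start of the RefSeq promoter windows (GRCh38.p14). A window was matched for 32 of the 39 members, not for SOD1, PRDX1, PRDX6, TXN2, GSS, GSR or HMOX1. The core was found in 6 of the 32 (18.8%), close to the share of the tested genes with a window, 1653 of 10355 (15.96%). Counted per window, the core was in 3830 of all 35116 windows (10.9%). These matches are descriptions and not mapped binding sites. They are printed with 10 bases on either side and the 9 bases of the core in capitals, because these members can be read against each other below.
PGD, chr1:10398853-10398881, minus strand: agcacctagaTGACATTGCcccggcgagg
GCLM, chr1:93909446-93909474, plus strand: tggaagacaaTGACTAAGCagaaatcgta
ME1, chr6:83431170-83431198, minus strand: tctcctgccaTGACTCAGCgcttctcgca
GSTP1, chr11:67583736-67583764, plus strand: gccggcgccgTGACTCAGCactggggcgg
TXNRD1, first site, chr12:104215670-104215698, plus strand: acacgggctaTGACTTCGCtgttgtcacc
TXNRD1, second site, chr12:104286920-104286948, minus strand: agagtcagaaTGACAAAGCagaaatccac
KEAP1, first site, chr19:10502807-10502835, minus strand: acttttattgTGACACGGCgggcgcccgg
KEAP1, second site, chr19:10502784-10502812, plus strand: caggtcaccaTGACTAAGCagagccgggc
The cores of ME1 and GSTP1 have the same 9 letters, and so do those of GCLM and the second site of KEAP1. The 6 genes did not move together: in the SLC30A10 knockout GCLM rose and ME1 fell, and in the second knockout ME1 rose while GSTP1 and TXNRD1 fell, with values given below. NQO1, the member with the largest change, has no such core in the 250 bases searched. Sites farther from the start were not searched, so a missing match does not show that a gene lacks the element.

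Per length, the members spanned a wide range of levels. Length was that of all annotated exons of a gene merged, which can exceed the length of the RNA expressed, so the order is approximate. In CPM per kilobase of exon, averaged over the 4 groups, PRDX1 was highest at 343.7, followed by GSTP1 at 285.4, PRDX2 at 165.2 and TXN at 157.8. The lowest were GLRX at 0.849 and GSTM3 at 0.554. The glutamate-cysteine ligase subunits lay low in this order, the catalytic GCLC at 10.5 and the modifier GCLM at 3.69 CPM per kilobase, while the haem oxygenases differed from each other, with the constitutive HMOX2 at 12.7 and the inducible HMOX1 at 3.603 CPM per kilobase. The summed level of all members was 6012 ± 192 CPM (SD, n = 4) in the SLC30A10 control set, 6203 ± 57.3 in the SLC30A10 knockout, 6049 ± 163 in the second control set and 5805 ± 100.5 in the second knockout.

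The first comparison asked which of these genes change when SLC30A10 is deleted. In the SLC30A10 knockout, NQO1, which reduces quinones by transferring both electrons at once, was 3.62-fold lower than in the control set, while catalase, both intracellular superoxide dismutases and both thioredoxins rose by less than 1.5-fold. An adjusted p under 0.05 (edgeR quasi-likelihood test, Benjamini-Hochberg over 15569 tested genes) was reached by 18 of the 39 members, 11 higher and 7 lower, which is 46.2% against 41.4% of all tested genes. The share that rose was 28.2% against a background of 21.2%, and the share that fell was 17.9% against 20.2%. The ranges of knockout and control were separate for 17 members (43.6%, background 38.3%). Sizes were modest: the median of the absolute log2 fold changes was 0.13, against 0.16 over all tested genes, the median log2 fold change was 0.02, against -0.005 over all tested genes, and NQO1 was the only member past the threshold with a change of at least 1.5-fold (2.56% of members, background 10.4%).

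In the second knockout, which was compared with the second control set, 9 of 39 members passed the same threshold (23.1%, background 13.7%). Of these, 3 were higher (7.69%, background 6.67%) and 6 lower (15.4%, background 7.03%). Groups did not overlap for 8 members (20.5%, background 16.3%). The median log2 fold change was -0.04, against -0.002 over all tested genes, and the median of the absolute values was 0.09 for the members and for all tested genes. NQO1 was again the only member past the threshold with a change of at least 1.5-fold (2.56%, background 4.27%), in the opposite direction. Counts of the role groups below, of 3 to 7 genes each, stand against the same shares of all tested genes, 41.4% and 13.7% for the first and the second knockout.

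**Figure D1:**
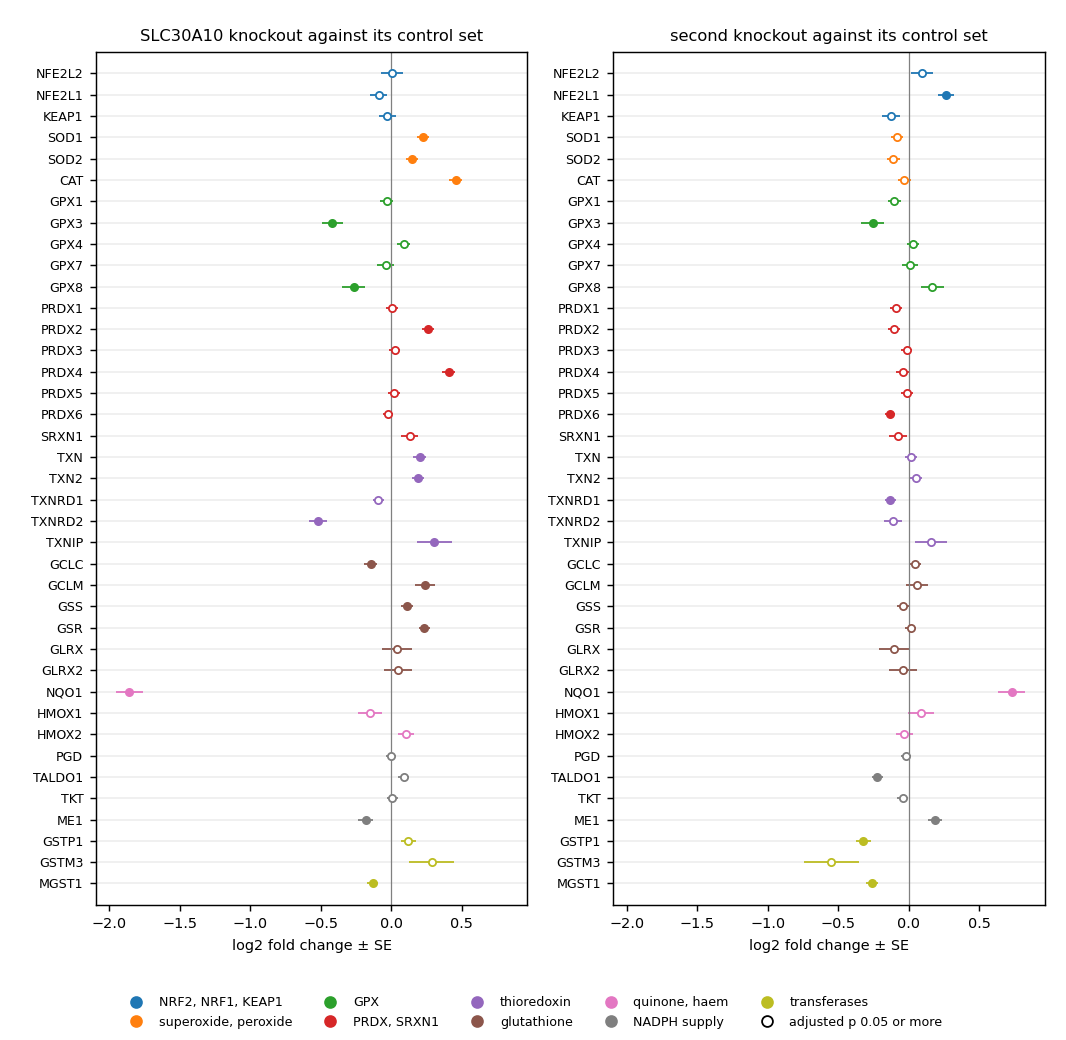
Log2 fold change (x axis) of the 39 members, grouped by role on the y axis, in the SLC30A10 knockout (left) and the second knockout (right), each against its own control set; points are estimates, bars are ± SE, and filled points have an adjusted p under 0.05. NQO1 lies far to the left at -1.86 in the first panel and to the right at 0.73 in the second, while the other filled points lie between -0.52 and 0.46.

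The factor and its inhibitor came first. NFE2L2, the gene of NRF2, had 69.0, 65.0, 73.0 and 60.8 CPM in the SLC30A10 control libraries 1 to 4 and 67.8, 67.3, 66.4 and 66.9 in the SLC30A10 knockout. It had 64.7, 68.3, 65.6 and 60.6 CPM in the second control set and 62.2, 70.0, 58.8 and 86.1 in the second knockout. Both pairs of groups overlapped, and library 4 of the second knockout was the highest of all 16. The log2 fold changes were 0.00 ± 0.08 (SE, adjusted p = 0.976) and 0.10 ± 0.08 (adjusted p = 0.468).

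KEAP1, the adaptor that marks NRF2 for degradation, had 74.2, 74.5, 90.9 and 71.1 CPM in the SLC30A10 control set and 74.8, 73.0, 78.4 and 79.0 in the SLC30A10 knockout. Around the second knockout it had 62.5, 64.7, 62.8 and 66.4 CPM in the control set and 59.0, 54.1, 61.2 and 60.8 in the knockout. The groups overlapped in the first comparison and lay just apart in the second, with log2 fold changes of -0.03 ± 0.06 (adjusted p = 0.754) and -0.13 ± 0.06 (adjusted p = 0.191). NFE2L1 encodes NRF1, a relative of NRF2 that resides at the endoplasmic reticulum and induces proteasome genes. It had 178, 181, 180 and 176 CPM in the SLC30A10 control set and 168, 170, 172 and 163 in the SLC30A10 knockout, groups that did not overlap, with a log2 fold change of -0.09 ± 0.06 that did not pass (adjusted p = 0.245). A fit of the 8 libraries compared did call NFE2L1 lower there (adjusted p = 0.0457). In the second knockout it rose, from 197, 205, 178 and 175 to 218, 227, 200 and 263 CPM, by 0.26 ± 0.06 on the log2 scale (adjusted p = 0.00215). The lowest knockout library lay below the highest control library, and library 4 was again the highest.

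NQO1 (chr16:69706996-69726951, minus strand, GRCh38 with GENCODE 29) is among the most widely used readouts of NRF2. It had 59.0, 56.4, 68.9 and 57.6 CPM in the SLC30A10 control set and 16.2, 15.97, 17.3 and 17.3 in the SLC30A10 knockout. It had 31.0, 25.3, 25.0 and 26.9 CPM in the second control set and 57.5, 43.1, 38.8 and 40.3 in the second knockout. Neither knockout overlapped its control set: every SLC30A10 knockout library was below, and every library of the second knockout above, with library 1 the highest there. NQO1 fell by 1.86 ± 0.10 on the log2 scale in the first (adjusted p = 2.42e-14) and rose by 0.73 ± 0.09 in the second (1.66-fold, adjusted p = 1.7e-06), and the effects differed by -2.59 ± 0.14 (adjusted p = 3.31e-14).

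The control sets differed in NQO1 as well, and by more than the second knockout did from its control. The SLC30A10 control set was 2.23-fold higher than the second control set (log2 difference 1.16 ± 0.09, adjusted p = 1.97e-09), and the ranges of their libraries were apart. With both control sets pooled, the fall in the SLC30A10 knockout was -1.39 (adjusted p = 0.000501) and the second knockout no longer differed past the threshold (0.04, adjusted p = 0.926). The order of the group means was thus the SLC30A10 control set at 60.5 ± 5.73 CPM (SD, n = 4), the second knockout at 44.9 ± 8.55, the second control set at 27.1 ± 2.73 and the SLC30A10 knockout at 16.7 ± 0.703. The first pair of neighbours in that order overlapped by 1 library. The 20 nearest tested genes on chromosome 16, 10 on each side, had a median log2 fold change of -0.27 in the SLC30A10 knockout (range -0.59 to 0.18) and of -0.03 in the second knockout, and their part in the level of NQO1 was not tested. The exons of NQO1 overlap those of AC092115.2 on the other strand. Whether the counting used strand is not given in the sources used here, so for this and other members with such an overlap, TXNRD2 among them, reads of the overlap cannot be told apart.

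The other readouts of NRF2 stayed within narrow ranges. HMOX1, the inducible haem oxygenase, had 9.75, 9.71, 10.2 and 8.29 CPM in the SLC30A10 control set and 8.45, 8.27, 8.77 and 8.72 in the SLC30A10 knockout. It had 7.71, 8.73, 7.77 and 8.02 CPM in the second control set and 8.35, 7.97, 9.08 and 8.84 in the second knockout. Groups overlapped in both comparisons, with log2 fold changes of -0.15 ± 0.09 (adjusted p = 0.169) and 0.09 ± 0.09 (adjusted p = 0.582).

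GCLM, the modifier subunit that raises the efficiency of glutamate-cysteine ligase, had 21.1, 17.2, 19.4 and 19.1 CPM in the SLC30A10 control set and 21.7, 21.1, 24.1 and 23.9 in the SLC30A10 knockout. It rose by 0.24 ± 0.07 on the log2 scale (adjusted p = 0.011), although library 1 of the control set slightly exceeded the lowest knockout library, and without control replicate 2 the change was 0.19 (adjusted p = 0.062). In the second experiment GCLM had 17.3, 18.2, 19.4 and 19.9 CPM in the control set and 20.3, 20.6, 19.7 and 17.3 in the knockout, overlapping groups with a log2 fold change of 0.06 ± 0.08 (adjusted p = 0.682). SRXN1, sulfiredoxin, reduces overoxidized peroxiredoxins. It had 43.7, 46.8, 51.9 and 45.5 CPM in the SLC30A10 control set and 48.8, 54.1, 51.1 and 51.9 in the SLC30A10 knockout, overlapping only through control replicate 3. The log2 fold change was 0.13 ± 0.06 (adjusted p = 0.078), and without that library 0.18 (adjusted p = 0.0147). The SRXN1 groups of the second experiment overlapped, with 36.9, 41.5, 38.9 and 41.8 CPM in the control set and 39.3, 40.2, 37.4 and 34.2 in the knockout (log2 fold change -0.08 ± 0.06, adjusted p = 0.482).

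TXNRD1, the cytosolic thioredoxin reductase, a selenoprotein with 2 of the printed cores, had 282, 283, 311 and 274 CPM in the SLC30A10 control set and 266, 275, 268 and 270 in the SLC30A10 knockout. The groups overlapped by 1 library and the change of -0.09 ± 0.04 did not pass (adjusted p = 0.0687), while without control replicate 4 it was -0.12 (adjusted p = 0.0266). In the second experiment it went from 270, 277, 280 and 276 CPM to 253, 249, 240 and 266, groups that did not overlap, and fell by 0.13 ± 0.04 on the log2 scale (adjusted p = 0.027). That call was lost when any of second control replicates 2, 3 or 4 or second knockout replicates 1, 2 or 3 was left out, with changes of -0.13 to -0.11 and adjusted p of 0.0549 to 0.0913. Across NQO1, HMOX1, GCLM, SRXN1 and TXNRD1, the SLC30A10 knockout thus had 1 fall and 1 rise past the threshold. The second knockout had 1 rise, that of NQO1, and 1 fall, the TXNRD1 call that depended on single libraries. Shares of all tested genes past the threshold in either direction were 41.4% and 13.7% for the first and the second knockout.

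**Figure D2:**
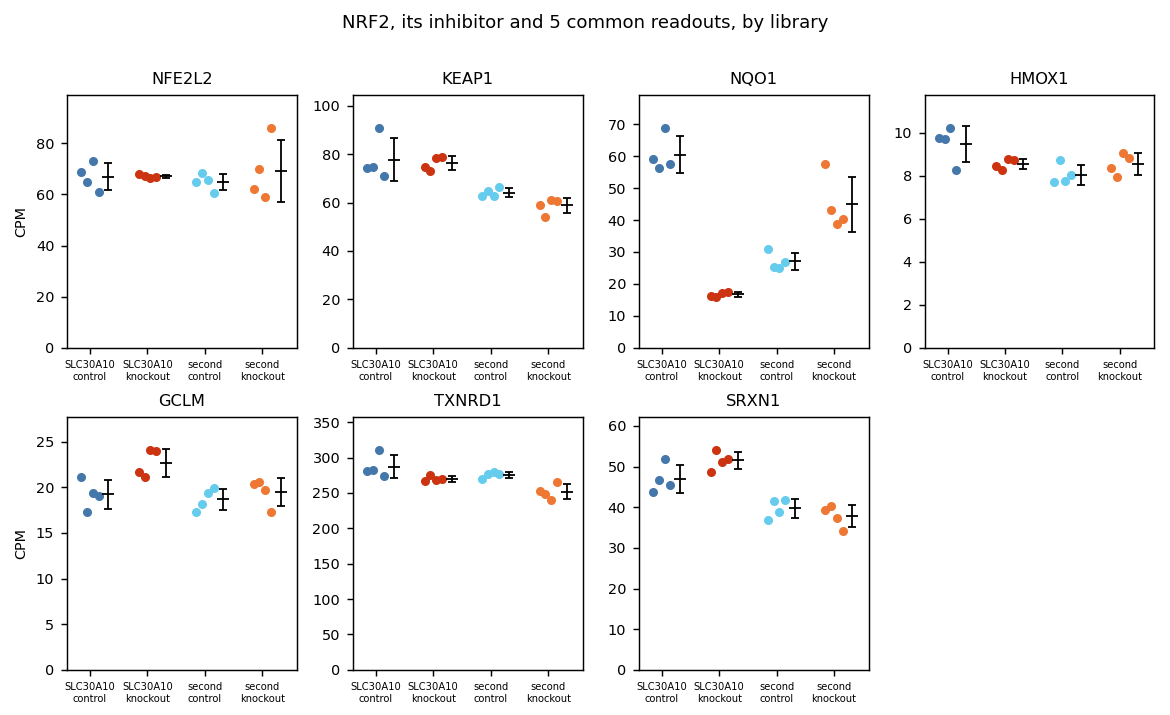
Level in CPM (y axis) of NFE2L2, KEAP1, NQO1, HMOX1, GCLM, TXNRD1 and SRXN1, a panel each, with the 4 libraries of each group as points and bars for the mean ± SD. NQO1 is lowest in the SLC30A10 knockout at 15.97 to 17.3 CPM and highest in its control set at 56.4 to 68.9 CPM, KEAP1 and SRXN1 are higher in every library of the first experiment than in any of the second, and TXNRD1 is lower in the second knockout than in its control set.

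Superoxide and hydrogen peroxide enzymes rose in the SLC30A10 knockout, 3 of 3 members, and 0 of 3 passed in the second knockout, where 2 had an unadjusted p under 0.05. Of all tested genes 21.2% rose in the SLC30A10 knockout, and 13.7% passed in the second. CAT, catalase, which breaks down hydrogen peroxide in peroxisomes, had 58.8, 59.8, 56.3 and 61.5 CPM in the SLC30A10 control set and 83.1, 76.6, 85.7 and 79.6 in the knockout. The groups were well apart, and CAT rose by 0.46 ± 0.05 on the log2 scale (1.38-fold, adjusted p = 5.69e-09). The second control set had 74.6, 69.9, 69.6 and 67.4 CPM of CAT and the second knockout 67.7, 69.1, 70.1 and 68.4, overlapping groups (log2 fold change -0.03 ± 0.05, adjusted p = 0.716). The second control set lay above the SLC30A10 control set and below the SLC30A10 knockout for CAT.

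SOD1, the copper and zinc dismutase of the cytosol, rose from 253 to 263 CPM in the SLC30A10 control libraries to 295 to 319 CPM in the knockout (log2 fold change 0.22 ± 0.04, adjusted p = 7.49e-05). SOD2, the manganese dismutase of the mitochondrial matrix, rose from 58.6 to 61.6 CPM to 65.9 to 67.8 CPM (0.15 ± 0.04, adjusted p = 0.00858), without overlap in either gene. Both control sets pooled gave no call for SOD2 (0.09, adjusted p = 0.153). In the second knockout the log2 fold changes were -0.08 ± 0.04 for SOD1 (adjusted p = 0.192) and -0.11 ± 0.04 for SOD2 (adjusted p = 0.106), and SOD2 passed there without second control replicate 1 (-0.14, adjusted p = 0.0404). The difference between the knockouts passed for all 3 enzymes, at 0.31 for SOD1, 0.25 for SOD2 and 0.49 for CAT (adjusted p = 0.000159, 0.00228 and 1.13e-06).

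Of the 5 members of the glutathione peroxidase family, 2 fell and 0 rose in the SLC30A10 knockout. GPX3, the secreted selenoenzyme, had 30.2, 30.8, 36.0 and 29.02 CPM in the SLC30A10 control set and 24.3, 22.5, 25.1 and 22.5 in the knockout, with no overlap (log2 fold change -0.42 ± 0.08, adjusted p = 8.68e-05). Against both control sets pooled it was -0.17 (adjusted p = 0.34). In the second control set it had 22.0, 23.8, 20.9 and 19.99 CPM and in the second knockout 21.3, 17.4, 17.0 and 17.0, where library 1 lay among the controls. It fell by 0.26 ± 0.08 on the log2 scale (adjusted p = 0.0374), a call that was lost without any of second control replicates 1, 2 or 3 or second knockout replicates 2, 3 or 4 (-0.27 to -0.21, adjusted p 0.0565 to 0.14), or in a fit of the 8 libraries compared (adjusted p = 0.059). The second control set was lower than the SLC30A10 control set by 0.54 ± 0.08 on the log2 scale (adjusted p = 6.26e-06), and no SLC30A10 control library reached down to its range.

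GPX8, a peroxidase of the endoplasmic reticulum, fell by 0.27 ± 0.08 on the log2 scale in the SLC30A10 knockout (adjusted p = 0.0121), from 65.97 to 79.7 CPM to 57.6 to 61.7 CPM, and without control replicate 3 the change was -0.21 (adjusted p = 0.0511), while against both control sets pooled it was -0.17 (adjusted p = 0.15). In the second knockout it was 0.17 ± 0.08 (adjusted p = 0.204), and 0.27 without second knockout replicate 3 (adjusted p = 0.0104). The knockouts differed in GPX8 by -0.43 (adjusted p = 0.00573). The cytosolic GPX1, the phospholipid hydroperoxidase GPX4, known for its role against ferroptosis, and GPX7 did not pass in either knockout, with log2 fold changes of -0.10 to 0.09. GPX4 passed in the SLC30A10 knockout without control replicate 3 (0.12, adjusted p = 0.0333).

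Among the 6 peroxiredoxins and sulfiredoxin, 2 rose in the SLC30A10 knockout and 1 fell in the second knockout. PRDX4, the peroxiredoxin of the endoplasmic reticulum (chrX:23664262-23686399, plus strand, GRCh38 with GENCODE 29), had 95.8, 88.3, 96.3 and 87.9 CPM in the SLC30A10 control set and 128, 117, 120 and 123 in the knockout. It had 81.9, 77.9, 77.7 and 77.0 CPM in the second control set and 84.9, 74.7, 72.3 and 73.7 in the second knockout. The SLC30A10 knockout lay above all other libraries, with a rise of 0.41 ± 0.05 on the log2 scale (adjusted p = 1.3e-07), while the second experiment's groups overlapped (-0.04 ± 0.05, adjusted p = 0.655). The 20 nearest tested genes on the X chromosome had a median log2 fold change of 0.38 in the SLC30A10 knockout (range -1.41 to 0.91). In the second knockout their median was 0.01 (range -0.53 to 0.36). The medians were close to the values of PRDX4 itself, but the neighbours spread widely, and their part was not tested.

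PRDX2, an abundant cytosolic peroxiredoxin, rose from 299 to 320 CPM to 358 to 380 CPM in the SLC30A10 knockout (0.26 ± 0.04, adjusted p = 1.11e-05). The second control set, at 354 to 376 CPM, overlapped the range of the SLC30A10 knockout, with library 1 just below it, and with both control sets pooled the call was lost (0.12, adjusted p = 0.172). PRDX2 was lower by 0.10 ± 0.04 in the second knockout (adjusted p = 0.0994) and passed without second knockout replicate 3 (-0.13, adjusted p = 0.033). PRDX6, which has a single catalytic cysteine, fell by 0.13 ± 0.04 in the second knockout (adjusted p = 0.0101), and without second knockout replicate 2 the value was -0.12 (adjusted p = 0.0526). PRDX1 and the mitochondrial PRDX3 and PRDX5 were not called in either knockout, with log2 fold changes between -0.09 and 0.02. PRDX2 and PRDX3 each have 4 named pseudogenes whose reads the authors' counting could have shared.

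The thioredoxin system moved both ways in the SLC30A10 knockout, with 3 of 5 members higher and 1 lower. TXNRD2, the mitochondrial thioredoxin reductase, had 32.04, 32.4, 36.3 and 30.5 CPM in the SLC30A10 control set and 23.9, 21.1, 23.4 and 23.1 in the knockout, with a wide gap and a fall of 0.52 ± 0.06 on the log2 scale (adjusted p = 3.18e-07). It had 31.7, 31.9, 28.5 and 29.3 CPM in the second control set and 29.1, 26.6, 29.7 and 27.4 in the second knockout, overlapping groups (-0.11 ± 0.06, adjusted p = 0.303).

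The thioredoxins themselves, the cytosolic TXN and the mitochondrial TXN2, rose in the SLC30A10 knockout by 0.20 ± 0.04 and 0.19 ± 0.04 on the log2 scale (adjusted p = 0.000546 and 0.000664), without overlap with the control libraries. TXN has 7 named pseudogenes. The second knockout gave 0.02 for TXN and 0.05 for TXN2 (adjusted p = 0.847 and 0.474). TXNIP, which binds thioredoxin and restrains glucose uptake, had 71.9, 61.3, 47.0 and 75.7 CPM in the SLC30A10 control set and 76.7, 87.6, 86.0 and 66.1 in the knockout. It had 185, 178, 133 and 133 CPM in the second control set and 171, 205, 149 and 177 in the second knockout. Both comparisons overlapped, and the libraries of the second experiment were all higher than those of the first.

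TXNIP rose by 0.31 ± 0.12 in the SLC30A10 knockout, just past the threshold (adjusted p = 0.0494), and changed by 0.16 ± 0.11 in the second (adjusted p = 0.413). The first call was lost without any of control replicates 2 or 3 or knockout replicates 1, 2 or 3 (0.18 to 0.32, adjusted p 0.0671 to 0.217) and by DESeq2's Wald test (0.30, adjusted p = 0.133), and with both control sets pooled the direction turned (-0.48, adjusted p = 0.211). The control sets themselves differed by -1.30 ± 0.12, the SLC30A10 set lower (adjusted p = 1.59e-08), which is larger than either knockout effect on TXNIP.

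Glutathione synthesis and reduction had 3 of 6 members higher and 1 lower in the SLC30A10 knockout, and 0 of 6 past the threshold in the second knockout, where 0 also had an unadjusted p under 0.05. GSR, glutathione reductase, rose from 113 to 117 CPM to 131 to 142 CPM in the SLC30A10 knockout (0.24 ± 0.04, adjusted p = 1.98e-05). The subunits of glutamate-cysteine ligase, the rate-limiting enzyme of glutathione synthesis, moved apart there: GCLM rose as given above and GCLC, the catalytic subunit, fell by 0.15 ± 0.04 (adjusted p = 0.00808), from 85.2 to 93.5 CPM to 77.9 to 81.8 CPM. GSS, glutathione synthetase, rose by 0.11 ± 0.04 (adjusted p = 0.0414), a call lost when any library of the comparison other than control replicate 4 was left out (0.10 to 0.12, adjusted p 0.0527 to 0.102), by DESeq2's Wald test (0.11, adjusted p = 0.0514) and with both control sets pooled (0.02, adjusted p = 0.835). The glutaredoxins GLRX and GLRX2, at 4.84 to 6.27 and 8.14 to 10.9 CPM over the 16 libraries, did not pass, with log2 fold changes of 0.04 and 0.05 in the SLC30A10 knockout and of -0.11 and -0.04 in the second.

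NADPH supply, on which both glutathione and thioredoxin reductases draw, had 1 of 4 members lower in the SLC30A10 knockout and 1 higher and 1 lower in the second. ME1, cytosolic malic enzyme, fell by 0.18 ± 0.05 in the SLC30A10 knockout (adjusted p = 0.00584) and rose by 0.19 ± 0.05 in the second (adjusted p = 0.0137), and the effects differed by -0.37 (adjusted p = 0.000286). The rise was lost without second control replicate 3 or 4 or second knockout replicate 1 (0.15 to 0.17, adjusted p 0.0519 to 0.0579). Both calls of ME1 were lost with the control sets pooled, at -0.06 and 0.06 on the log2 scale (adjusted p = 0.521 and 0.564). TALDO1, transaldolase of the pentose phosphate pathway, had 149, 157, 165 and 164 CPM in the SLC30A10 control set and 164, 165, 173 and 174 in the knockout. It had 178, 183, 175 and 174 CPM in the second control set and 154, 150, 155 and 149 in the second knockout.

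The TALDO1 groups were clearly apart in the second experiment, where it fell by 0.22 ± 0.04 (adjusted p = 0.000169), and overlapped in the first (0.09 ± 0.04, adjusted p = 0.0727, and 0.11 with adjusted p = 0.0338 without control replicate 3). PGD and TKT, the dehydrogenase and transketolase of the same pathway, did not pass in either knockout, with log2 fold changes between -0.04 and 0.01.

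The glutathione transferases, which conjugate glutathione to electrophiles, had 1 of 3 members lower in the SLC30A10 knockout and 2 of 3 lower in the second knockout. GSTP1, the most abundant of them here, had 560, 564, 615 and 581 CPM in the SLC30A10 control set and 655, 598, 643 and 628 in the knockout. In the second experiment it had 586, 562, 489 and 520 CPM in the control set and 473, 439, 403 and 412 in the knockout. The second experiment's groups did not overlap, with a fall of 0.32 ± 0.05 on the log2 scale (adjusted p = 4.45e-05), while the first groups overlapped through control replicate 3 and knockout replicate 2. The first change was 0.12 ± 0.05 (adjusted p = 0.0579) and passed without either of those libraries (0.15 in both cases, adjusted p = 0.0231 and 0.0345).

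MGST1, the microsomal transferase, had 194, 191, 196 and 192 CPM in the SLC30A10 control set and 178, 183, 175 and 169 in the knockout. It had 193, 185, 201 and 201 CPM in the second control set and 169, 170, 161 and 150 in the second knockout. It was lower in both knockouts without overlap, by 0.13 ± 0.04 (adjusted p = 0.0118) and 0.26 ± 0.04 (adjusted p = 4.14e-05), and the difference between those effects, 0.13 ± 0.06, did not pass (adjusted p = 0.0992). GSTM3 was the weakest member, at 1.61 to 3.61 CPM in the group means, with log2 fold changes of 0.29 ± 0.16 (adjusted p = 0.154) and -0.55 ± 0.19 (adjusted p = 0.0612). It passed in the second knockout without second control replicate 3 (-0.65, adjusted p = 0.0334) or second knockout replicate 1 (-0.68, adjusted p = 0.0302), and its effects differed by 0.84 ± 0.25 (adjusted p = 0.012). HMOX2, the remaining haem oxygenase, did not pass in either knockout (0.11 and -0.03).

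**Figure D3:**
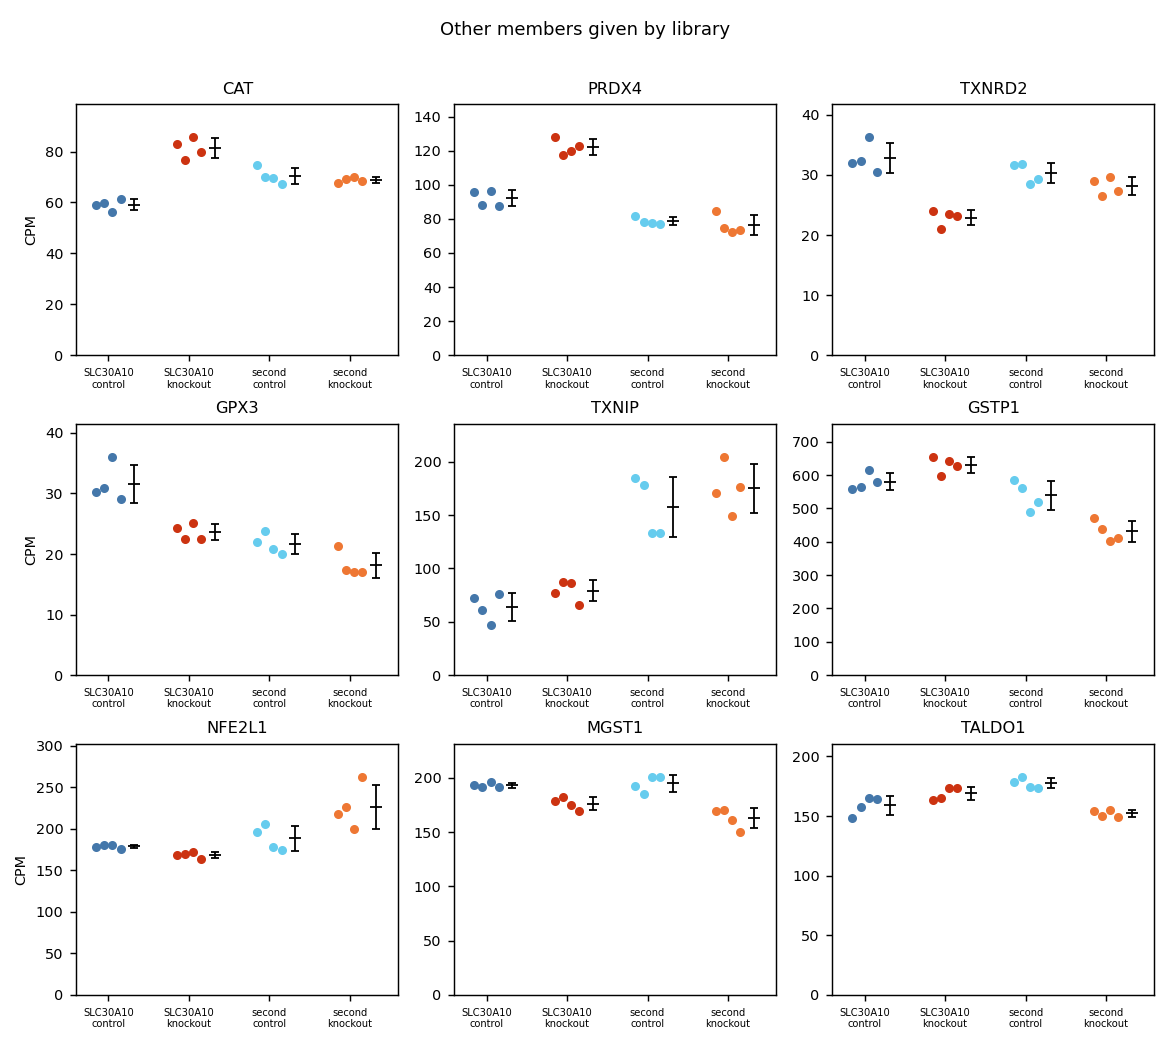
Level in CPM (y axis) of CAT, PRDX4, TXNRD2, GPX3, TXNIP, GSTP1, NFE2L1, MGST1 and TALDO1, a panel each, with 4 libraries of each group as points and bars for the mean ± SD. CAT and PRDX4 stand higher and TXNRD2 lower in the SLC30A10 knockout than in the other 3 groups, GSTP1, MGST1 and TALDO1 have their lowest means in the second knockout, and TXNIP separates the experiments, at 47.0 to 87.6 CPM in the first and 133 to 205 CPM in the second.

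Read by compartment, the 6 mitochondrial members (SOD2, PRDX3, PRDX5, TXN2, TXNRD2 and GLRX2) had 2 rises and 1 fall in the SLC30A10 knockout, and 0 passed in the second knockout, where 1 had an unadjusted p under 0.05. The share of 3 of 6 stands against 41.4% of all tested genes in the SLC30A10 knockout, and 0 of 6 against 13.7% in the second. TXN2 and the reductase that recharges it, TXNRD2, moved in opposite directions in the SLC30A10 knockout. The 5 selenoproteins (GPX1, GPX3, GPX4, TXNRD1 and TXNRD2), whose translation depends on selenium supply, had 2 falls and 0 rises in each knockout: TXNRD2 and GPX3 in the SLC30A10 knockout, and TXNRD1 and GPX3 in the second. That is 40% of the selenoproteins in each, against 20.2% and 7.03% of all tested genes that fell. In either direction, 41.4% and 13.7% of all tested genes passed the threshold. Both calls of the second knockout were lost without single libraries, as given above.

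With both control sets pooled, members that had not passed did so in the SLC30A10 knockout for HMOX2 (0.26, adjusted p = 0.0198), SRXN1 (0.25, adjusted p = 0.0119), GSTP1 (0.17, adjusted p = 0.0163) and GSTM3 (0.44, adjusted p = 0.035). For the second knockout the same change added falls of KEAP1 (-0.27, adjusted p = 0.0234), GPX1 (-0.17, adjusted p = 0.0256), PRDX1 (-0.13, adjusted p = 0.0407) and GSTM3 (-0.72, adjusted p = 0.00924). After pooling, 32.1% and 19% of all tested genes passed for the first and the second knockout. Pooled values include the difference between the control sets. The SLC30A10 control set was higher by 0.33 for HMOX2, 0.24 for SRXN1, 0.28 for KEAP1 and 0.13 for GPX1, past the threshold. For GSTP1, PRDX1 and GSTM3 it was higher by 0.10, 0.09 and 0.33, short of it. How much of each gained call belongs to a knockout was not tested.

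The difference of the knockout effects was tested in the same model and passed for 16 of 39 members (41.0%, background 31.3%), with the effect of the SLC30A10 knockout the higher for 10 (25.6%, background 16.7%) and the lower for 6 (15.4%, background 14.6%). The higher ones were SOD1, SOD2, CAT, PRDX2, PRDX4, TXN, GSR, TALDO1, GSTP1 and GSTM3. The lower ones were NQO1, GPX8, TXNRD2, GCLC, ME1 and NFE2L1. The median difference over the members was 0.10, against -0.004 over all tested genes, and the median absolute difference was 0.16, against 0.19. Without SLC30A10 control replicate 3 the difference also passed for TXN2 (0.17, adjusted p = 0.028), SRXN1 (0.26, adjusted p = 0.0169) and KEAP1 (0.18, adjusted p = 0.038). NQO1 and ME1 were the members that passed in both knockouts with opposite signs, and GPX3 and MGST1 passed in both with the same sign.

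The control sets, both wild-type cultures of one parental line, differed from each other in 16 of 39 members (41.0%, background 39.3%). The SLC30A10 control set was the higher for 9 (23.1%, background 18.5%) and the lower for 7 (17.9%, background 20.8%), and the sets did not overlap for 14 (35.9%, background 36.3%). Only TXNIP and NQO1 passed with a difference of at least 1.5-fold (5.13%, background 5.64%), and GPX3 followed at 0.54. All 3 quinone and haem enzymes were higher in the SLC30A10 control set, HMOX2 by 0.33 (adjusted p = 9.08e-05) and HMOX1 by 0.24 (adjusted p = 0.0329), as were KEAP1 by 0.28 (adjusted p = 0.000635) and SRXN1 by 0.24 (adjusted p = 0.00286). The HMOX1 difference was lost when any library other than SLC30A10 control replicate 4 and second control replicate 2 was left out (0.21 to 0.24, adjusted p 0.0541 to 0.0897). Without SLC30A10 control replicate 3 the calls of SOD2 (-0.12, adjusted p = 0.0563) and GPX1 (0.08, adjusted p = 0.138) were also lost, and GPX4 passed (-0.13, adjusted p = 0.0277). CAT and PRDX2 were lower in the SLC30A10 control set by 0.25 and 0.27 (adjusted p = 0.000114 and 1.43e-05). The SLC30A10 control libraries serve in this comparison and in that of the SLC30A10 knockout, and likewise for the second control set, so these values stand side by side and are not independent.

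**Figure D4:**
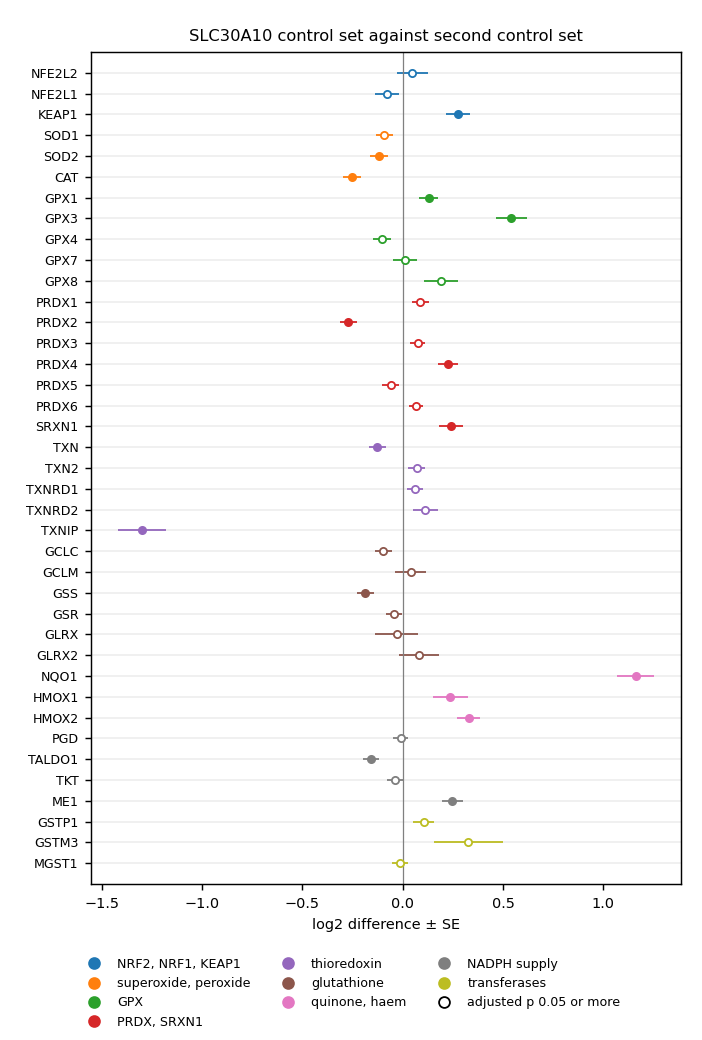
Log2 difference (x axis) between the SLC30A10 control set and the second control set for the 39 members (y axis), as points with bars of ± SE, filled where the adjusted p was under 0.05. NQO1 at 1.16 and GPX3 at 0.54 are higher in the SLC30A10 control set, TXNIP at -1.30 is lower, and the remaining members lie between -0.27 and 0.33.

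Beyond the members, a wider list of 89 genes of the same pathways held 81 tested genes. In the SLC30A10 knockout 37 of the 81 passed (45.7%, background 41.4%), 22 higher (27.2%, background 21.2%) and 15 lower (18.5%, background 20.2%). In the second knockout 14 passed (17.3%, background 13.7%), 8 higher (9.88%, background 6.67%) and 6 lower (7.41%, background 7.03%). Rises and falls of the smaller groups that follow stand against the same background shares. Partners and regulators of NRF2 had 3 rises and 2 falls among 14 in the SLC30A10 knockout and 1 fall in the second. Other common NRF2 targets had 6 rises and 3 falls among 22 in the SLC30A10 knockout, against 2 rises and 2 falls in the second. Other glutathione genes had 6 rises and 5 falls among 21, against 2 rises and 1 fall. Other thioredoxin-fold, methionine sulfoxide and NADPH genes had 6 rises and 4 falls among 18, against 3 rises and 2 falls, and selenoprotein synthesis genes had 1 rise and 1 fall among 6, against 1 rise.

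The largest rises of the wider list in the SLC30A10 knockout were those of MSRA, a methionine sulfoxide reductase, from 2.56 to 5.95 CPM in the group means (1.22 ± 0.15 on the log2 scale), SESN3, a sestrin, by 0.84 ± 0.07, and CBR3, a carbonyl reductase, by 0.64 ± 0.12. The largest falls were those of SLC3A2, by 0.67 ± 0.10, the NRF2 target OSGIN1, by 0.63 ± 0.22, and the mitochondrial methionine sulfoxide reductase MSRB2, by 0.45 ± 0.10. OSGIN1, at 1.18 to 3.96 CPM in this comparison, lost its call (adjusted p = 0.023) without control replicate 3 or knockout replicates 2 or 4 (-0.46, -0.46 and -0.60, adjusted p = 0.116, 0.103 and 0.0552). The call was also lost with both control sets pooled (-0.37, adjusted p = 0.266). SLC3A2 encodes the heavy chain that carries the cystine transporter to the cell surface. It had 177, 197, 199 and 183 CPM in the SLC30A10 control set and 125, 110, 116 and 124 in the knockout, with no overlap. SLC7A11, that transporter, had 75.0, 64.8, 69.6 and 73.6 CPM in this control set and 51.6, 56.6, 46.7 and 50.3 in the knockout, also without overlap. Its log2 fold change of -0.46 did not pass (adjusted p = 0.0989). It passed with both control sets pooled (-0.64, adjusted p = 0.0373), in a fit of the 8 libraries compared and without the filter on low counts.

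In the second knockout the largest rise was that of GSTM2, a mu-class transferase and close paralog of GSTM3, from 3.98, 4.79, 4.64 and 5.04 CPM to 16.6, 17.4, 16.7 and 16.6 CPM. It rose by 1.86 ± 0.09 on the log2 scale (adjusted p = 1.04e-14), and reads shared within the mu class make such values uncertain. SLC7A11, the cystine transporter, had 97.2, 114, 85.8 and 60.9 CPM in the second control set and 118, 170, 76.8 and 257 in the second knockout. Its groups overlapped and its rise of 0.80 ± 0.21 (adjusted p = 0.00869) was 0.44 without knockout replicate 4 (adjusted p = 0.0647), and a fit of the 8 libraries compared gave an adjusted p of 0.0525. SESN2, a stress-induced sestrin, had 58.7, 73.6, 63.3 and 35.3 CPM in the control set and 61.8, 95.5, 51.3 and 156 in the knockout. Its rise of 0.66 ± 0.21 (adjusted p = 0.0367) was 0.27 without knockout replicate 4 (adjusted p = 0.295), and the call was also lost without control replicates 1, 3 or 4 or knockout replicate 2 (0.49 to 0.71, adjusted p 0.053 to 0.155), by DESeq2's Wald test (adjusted p = 0.153) and in a fit of the 8 libraries compared (adjusted p = 0.121). Replicate 4 of the second knockout, the highest for NFE2L2 and NFE2L1, was thus also the highest for SLC7A11 and SESN2.

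CHAC1, an enzyme that degrades glutathione, had the largest fall of the wider list in the second knockout, from 37.5, 43.8, 36.3 and 14.8 CPM in the second control set to 1.18, 0.675, 0.727 and 0.969 CPM. The log2 fold change was -5.21 ± 0.29 (adjusted p = 1.33e-13). The first experiment had 4.39 to 5.55 CPM of CHAC1 in its control set and 3.48 to 4.92 in the knockout, so the second control set was the highest of the 4 groups. BACH2, a repressor of the BACH family, fell by 0.80 ± 0.17 and SESN3 by 0.62 ± 0.07 in the second knockout (adjusted p = 0.00139 and 3.49e-07), and with both control sets pooled neither passed (-0.47 and -0.35, adjusted p = 0.144 and 0.0842).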

How the data were processed

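Poly-A RNA of 16 HAP1 libraries was grouped by the genotype and title in the labels. The gene deleted in the second knockout is not reported here. The authors deposited raw counts per gene symbol and a normalized signal table whose columns equal the counts times a constant per library (largest deviation 5.22e-06). The submitters' processing notes name HISAT2, featureCounts, DESeq2 and hg38/GRCh38. Versions, annotation and use of strand are not given in the sources used here. Counts were fitted in edgeR 4.0.16 (R 4.3.3): expression filter (minimum count 10, total 15; 15569 genes), trimmed mean of M-values, group means of all 16 libraries, quasi-likelihood F test, Benjamini-Hochberg adjustment over all tested genes, threshold 0.05. SE is the absolute log2 fold change divided by the square root of F. CPM are counts per 1000000 of scaled library size, and 3 counts equal 0.181 to 0.187 CPM, a floor for counting error only. Exon lengths, positions and overlaps came from GENCODE 29, promoters from RefSeq. Of the entries, 3103 are numbered copies of a symbol, kept separate in the main analysis.

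The rule picks members by symbol alone, but the members and the wider list were chosen with earlier results of these data known. Values in every library are given for the 6 largest called changes of each knockout, for NFE2L2, KEAP1, NQO1, HMOX1, GCLM, TXNRD1 and SRXN1, and for the 3 largest called differences between the control sets. The 3 largest called rises and falls of the wider list are named for each knockout. Replicate pairs gave a chi-square per degree of freedom of 1.60 to 6.43, so none was treated as a repeat. Alternatives were other scalings, DESeq2 1.42.0, other filters and thresholds, fits of the compared libraries alone, pooled control sets, a replicate block, summed copies and each library left out. The procedure was tested on simulated counts.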

Additional observations from a re-analysis of the deposited data

Results flagged for a closer look

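For each named gene and group of 4 libraries, the distance of the highest or lowest library from its neighbour was divided by the whole range. That share exceeded Dixon's 95% critical value for 4 values in 8 of 200 cases, where chance would give about 10. SOD1 was high in SLC30A10 knockout replicate 2 at 319 CPM (share 0.858), GPX3 in second knockout replicate 1 at 21.3 CPM (0.907) and GCLC in second knockout replicate 2 at 105.1 CPM (0.84). PRDX2 at 320.0 CPM (0.872) and KEAP1 at 90.9 CPM (0.831) were high in SLC30A10 control replicate 3, and PRDX5 was low in second control replicate 3 at 120.5 CPM (0.924). In the wider list, CBR3 was low in second knockout replicate 3 at 4.00 CPM (0.894) and GSTM2 was high in second knockout replicate 2 at 17.4 CPM (0.911).

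The effect of the SLC30A10 knockout differed from that of the second knockout, by a test of the difference itself, for 16 members. On the log2 scale the SLC30A10 effect was higher by 0.31 for SOD1, 0.25 for SOD2, 0.49 for CAT, 0.37 for PRDX2, 0.45 for PRDX4, 0.18 for TXN, 0.22 for GSR, 0.31 for TALDO1, 0.44 for GSTP1 and 0.84 for GSTM3. The difference was -2.59 for NQO1, -0.43 for GPX8, -0.41 for TXNRD2, -0.19 for GCLC, -0.37 for ME1 and -0.35 for NFE2L1. The difference for TXN fell short of the threshold without SLC30A10 control replicate 2, SLC30A10 knockout replicate 1, second control replicate 1 or second knockout replicate 2 (0.15 to 0.17, adjusted p 0.0591 to 0.0795). Among the named genes of the wider list it was 5.004 for CHAC1, 1.46 for SESN3, 1.37 for MSRA, 1.12 for BACH2, 0.60 for CBR3, -1.06 for SLC3A2, -0.47 for MSRB2, -1.26 for SLC7A11 and -1.25 for GSTM2.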

How the results depend on the processing

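Of 39 members in 4 comparisons, no value changed its direction past the threshold under another scaling, filter, threshold or tool. The only called value that turned sign was TXNIP in the SLC30A10 knockout with both control sets pooled (-0.48, adjusted p = 0.211). Pooling moved 17 of 78 member values across the threshold or in sign, 8 to lost and 8 to gained calls. A fold change of at least 1.5 left 1 member in the SLC30A10 knockout, 1 in the second knockout, 2 for their difference and 2 between the control sets, and 6, 6, 10 and 9 genes of the wider list (all tested genes 10.4%, 4.27%, 11.4% and 5.64%). An adjusted p under 0.01 left 5 members in the second knockout (all tested genes 7.89%). With each library left out in turn, the called members numbered 15 to 19 in the SLC30A10 knockout, 6 to 9 in the second knockout, 15 to 19 for the difference and 13 to 18 between the control sets, and those of the wider list 30 to 35, 11 to 16, 24 to 35 and 28 to 36. Of all tested genes, 36% to 39.2%, 9.99% to 13.7%, 28.3% to 32.1% and 32.1% to 39% then passed in the same comparisons. The member medians ranged from 0.0037 to 0.051, from -0.053 to -0.015, from 0.059 to 0.12 and from 0.027 to 0.079, lowest in size for the second knockout without its replicate 3 and for the difference without SLC30A10 control replicate 4. The cause of these shifts was not tested. Replicate numbers recur in the titles. Deviations of same-numbered libraries from their group means had mean correlations of -0.032, 0.047 and 0.018 in the SLC30A10, second and control comparisons. Single pairs lay between -0.103 and 0.116. The same-numbered library was the best match for 0, 1 and 3 of the 4 libraries in these comparisons. Whether same-numbered libraries share an origin was not tested. With the replicate number as a block, 19, 9, 16 and 16 members passed in the SLC30A10 knockout, the second knockout, the difference and the control sets, and 38, 13, 29 and 35 genes of the wider list (all tested genes 41.7%, 13.9%, 31.4% and 39.7%). Under the block GSTP1 passed in the SLC30A10 knockout (adjusted p = 0.0077), no other member changed its call, and SESN2 of the wider list was lost in the second knockout (0.57, adjusted p = 0.086). Depth limits GSTM3, with 17 counts in its lowest library, more than the other members.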
